A study of Bos grunniens with 18 samples.

Results

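GAB adaptors and the phosphatase SHP2 connect activated receptors to RAS and ERK, and 6 genes of this route were followed in yak blood across 3 reproductive stages. The route was described through 7 gene names: the adaptors GAB1, GAB2, GAB3 and GRB2, the phosphatase gene PTPN11, and the exchange factors SOS1 and SOS2. Members were all rows of the gene table that carry one of these names. The rule found 6 of the 7 names among 20607 genes, and all 6 passed the filter on low counts. GRB2 was not analysed here. The set of names was chosen by relation to GAB2, which had been singled out by its measured difference between Y-P and Y-E in these data, so the values of GAB2 are given as a description with no test in any comparison.

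Whole blood came from adult female yaks (Bos grunniens) aged 4 to 8 years, and the study's methods name 6 cows that were followed through the 3 stages. The group Y-A was sampled in anestrus, Y-E at estrus and Y-P during pregnancy, with 6 RNA-seq libraries per group. Estrus had been synchronized with a progesterone pessary, PGF2α and GnRH, and insemination was timed, so a stage is also a time of sampling and a hormone treatment, and these cannot be told apart. The blood held all its cell types together, and fewer cells of a type and less RNA per cell cannot be told apart in such samples. The GEO labels do not say which library came from which cow.

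GAB proteins are scaffolds without enzyme activity of their own. Once a receptor or its kinase phosphorylates them, they hold SHP2, the regulatory subunit of PI3-kinase and other signaling proteins at the membrane. GRB2 is the small adaptor that brings both GAB proteins and SOS to activated receptors, SOS loads RAS with GTP, and SHP2 is a tyrosine phosphatase whose activity is generally needed for full RAS and ERK signaling. In blood cells GAB2 and GAB3 are known from cytokine and Fc receptor signaling in myeloid cells, mast cells and macrophages, whereas GAB1 is used by many receptor tyrosine kinases outside the blood.

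The libraries held 30247267 to 48401076 counts, and the factors of TMM normalization ran from 0.871 to 1.12. Hemoglobin genes took 0.0272% to 16.7% of the counts. Y-E replicate 6 stood apart from the other Y-E libraries with 8.36% hemoglobin and 46404156 counts. The 5 libraries with over 40000000 counts, here termed deep, were Y-A replicate 1, Y-E replicate 6 and Y-P replicates 2, 3 and 5, so depth was not even across the stages. Results that rest on these libraries are given with and without them. Levels are CPM, counts scaled to the library size after TMM normalization, and comparisons between genes use the deposited FPKM, which is scaled for length.

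Each of the 6 names belonged to 1 gene identifier. The positions are those of the deposited table, whose build the study names only by its Ensembl release for Bos grunniens. GAB2 (ENSBGRG00000020464) spans chromosome 29 from 26400599 to 26603793 on the minus strand, with 1 transcript listed. GAB3 (ENSBGRG00000018202) lies on chromosome X from 38674055 to 38768893 on the plus strand. GAB1 (ENSBGRG00000020583) and PTPN11 (ENSBGRG00000019798) are both minus-strand genes of chromosome 16, the former from 15870797 to 16016400 and the latter from 68412909 to 68489897. SOS1 (ENSBGRG00000017905) lies on chromosome 9 from 40803302 to 40945149 and SOS2 (ENSBGRG00000018125) on chromosome 11 from 29196554 to 29303689, both on the minus strand. PTPN11, SOS1 and SOS2 each overlap 1 other annotated gene, and none of these reached more than 4 counts in any library. The table assigns all 6 genes to the KEGG pathway Ras signaling, which holds 290 of its genes, and GAB2, GAB3, SOS1 and SOS2 to Fc epsilon RI signaling, which holds 77.

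On the length-scaled FPKM, GAB2 was the most abundant of the 6 genes. Its mean over the 18 libraries was 76.0 FPKM ± 32.6 (SD), at the 94.9th percentile of the genes in the table. PTPN11 followed with 26.6 ± 5.16, then SOS2 with 19.9 ± 4.04, SOS1 with 18.7 ± 3.77 and GAB3 with 11.7 ± 3.10. GAB1 was last with 2.18 ± 0.823, at the 49.5th percentile. The neighbours PTPN11 and SOS2, SOS2 and SOS1, and SOS1 and GAB3 had overlapping ranges over the libraries and are not ordered beyond their spread. GAB3 and GAB1 did not overlap, since the lowest GAB3 level was 6.35 FPKM and the highest GAB1 level 3.97. GAB2 and PTPN11 overlapped across stages, since GAB2 went down to 30.6 FPKM and PTPN11 up to 35.6, but within each library GAB2 was the higher, by 1.11 to 7.42 times.

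GAB2, the scaffold known from cytokine and IgE receptor signaling, had its lowest levels in pregnancy. In Y-A it measured 206 CPM in the lowest library, 238 at the median and 284 in the highest. In Y-E the corresponding levels were 214, 362 and 456 CPM, and in Y-P they were 94.6, 116 and 143 CPM. Every Y-P library was below every library of both other stages, whereas Y-A and Y-E overlapped. The Y-E libraries were the most scattered, with replicates 2, 3 and 5 between 431 and 456 CPM and replicates 1, 4 and 6 between 214 and 293 CPM. The mean was 119 ± 17.9 CPM in pregnancy, against 240.6 ± 34.1 in anestrus and 355 ± 102 in estrus (SD, n = 6 each), the last being 368 ± 108 without replicate 6 (n = 5).

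As log2 fold changes, the level of GAB2 was 1.58 lower in Y-P than in Y-E (SE 0.17), 1.02 lower in Y-P than in Y-A (SE 0.17) and 0.56 higher in Y-E than in Y-A (SE 0.17). These correspond to levels 2.99-fold lower, 2.02-fold lower and 1.48-fold higher. The direction was the same in each of the 29 alternative analyses, with log2 fold changes between −1.69 and −1.33 for Y-P vs Y-E, between −1.08 and −0.80 for Y-P vs Y-A and between 0.48 and 0.67 for Y-E vs Y-A. The Y-P vs Y-A value lies close to the 2-fold limit, and without the 5 deep libraries it was −0.86. By number, GAB2 was lower in Y-P than in Y-E in 6 of 6 same-numbered pairs, and higher in Y-E than in Y-A in 6 of 6. GAB2 was chosen by its Y-P vs Y-E difference in these same libraries, so neither the ranges nor the pairs are independent support.

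**Figure D1:**
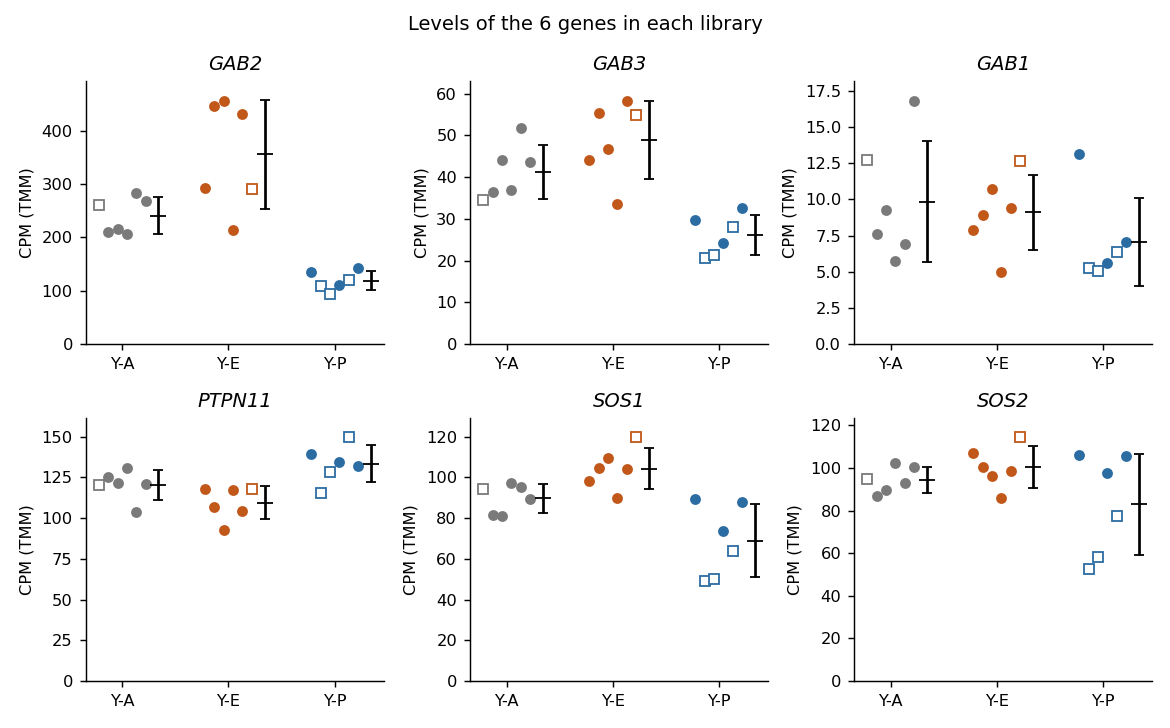
CPM after TMM normalization (vertical axes, starting at 0) of the 6 genes in each library, by stage (horizontal axes; Y-A gray, Y-E orange, Y-P blue). Filled circles are the 13 other libraries, open squares the 5 deep libraries (over 40000000 counts), and the black bars the mean ± SD of 6 libraries. GAB2 and GAB3 in Y-P lie below every library of the other stages, and for SOS1 and SOS2 the 3 open squares of Y-P lie below the 3 filled circles.

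GAB3, the close relative of GAB2 known from macrophage signaling, was also lowest in pregnancy. In Y-A it measured 34.6 CPM in the lowest library, 40.3 at the median and 51.8 in the highest. In Y-E these were 33.7, 50.8 and 58.3 CPM, and in Y-P 20.6, 26.2 and 32.6 CPM. The Y-P libraries again lay below those of both other stages, although the highest Y-P library was only about 1 CPM short of the lowest Y-E library. GAB3 fell in Y-P against Y-E by 0.90 on the log2 scale (SE 0.15, 1.87-fold lower, edgeR quasi-likelihood test, adjusted p = 0.00103) and against Y-A by 0.66 (SE 0.15, 1.58-fold lower, edgeR adjusted p = 0.0179). Y-E and Y-A overlapped, with a log2 fold change of 0.24 (95% interval −0.067 to 0.56, edgeR adjusted p = 0.904).

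The call against Y-E held in each of the 29 alternatives, with edgeR, DESeq2 or limma adjusted p-values from 7.8e-07 to 0.0199. The call against Y-A held in 26 of 29. It was lost with limma on the FPKM values (adjusted p = 0.0731 with a pseudocount of 1) and without the deep libraries (log2 fold change −0.56, edgeR adjusted p = 0.103).

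GAB1, the family member used by many growth factor receptors, was scarce and scattered. It measured 5.75, 8.43 and 16.8 CPM in the lowest, median and highest Y-A library. In Y-E the levels were 4.96, 9.17 and 12.7 CPM, and in Y-P 5.09, 5.96 and 13.1 CPM. The stages overlapped throughout, and the coefficient of variation within a stage was 28.8% to 43.0%, against 14.2% to 28.7% for GAB2. The log2 fold change was −0.36 for Y-P vs Y-E (95% interval −0.96 to 0.24, edgeR adjusted p = 0.439) and −0.48 for Y-P vs Y-A (−1.08 to 0.12, edgeR adjusted p = 0.340). For Y-E vs Y-A it was −0.11 (−0.71 to 0.49, edgeR adjusted p = 0.999), and its sign turned when Y-A replicate 6 (0.096) or Y-E replicate 4 (0.013) was left out. Differences of the size seen for GAB3 lie inside these intervals, so they are not excluded for GAB1.

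As a share of the summed FPKM of the 3 GAB genes, GAB2 made up 80.0% ± 1.42 in Y-P, against 83.9% ± 1.46 in Y-A and 86.7% ± 2.47 in Y-E (SD, n = 6). In the same order, GAB3 made up 16.4%, 13.5% and 11.5%, and GAB1 the small rest of 3.61%, 2.63% and 1.77%. GAB2 thus remained the main GAB transcript in all 18 libraries, with no share under 78.2%. The ratio of GAB2 to GAB3 was 4.91 ± 0.399 in Y-P, against 6.32 ± 0.980 in Y-A and 7.76 ± 1.66 in Y-E, so within the Y-P libraries the lower GAB2 level went with a proportionally smaller difference in GAB3. These shares contain GAB2 and were not tested.

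PTPN11 encodes SHP2, the phosphatase that docks on GAB proteins. Its levels moved the other way from those of GAB2, and by less. It measured 104, 121 and 131 CPM in the lowest, median and highest Y-A library. In Y-E the levels were 92.7, 112 and 118 CPM, and in Y-P 116, 133 and 149.7 CPM. Only the lowest Y-P library, replicate 2, lay inside the Y-E range, and Y-P and Y-A overlapped widely.

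PTPN11 rose in Y-P against Y-E by 0.28 on the log2 scale (SE 0.087, 1.22-fold, edgeR adjusted p = 0.0350), and it was higher in 6 of 6 same-numbered pairs. The value is close to the threshold: the adjusted p passed 0.05 in 19 of 29 alternatives, and the range over them was 0.00778 to 0.0849. It missed the threshold without Y-E replicate 2, 3 or 5 and without Y-P replicate 1, 4, 5 or 6, where the log2 fold change was between 0.24 and 0.29 and the edgeR adjusted p between 0.0501 and 0.0849. In the fit blocked by replicate number, the edgeR adjusted p was 0.0412 over 18 libraries and 0.0522 over the 17 without Y-E replicate 6. Without the deep libraries the log2 fold change was 0.33 (edgeR adjusted p = 0.0419). The change against Y-A was 0.15 (95% interval −0.035 to 0.33, edgeR adjusted p = 0.329), and Y-E against Y-A gave −0.14 (−0.32 to 0.045, edgeR adjusted p = 0.924).

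The ratio of GAB2 to PTPN11 FPKM sets the scaffold beside its phosphatase within each library, free of the scaling between libraries. In Y-A it ran from 2.38 to 4.12 with a median of 2.97. In Y-E it ran from 2.76 to 7.42 with a median of 4.99, and in Y-P from 1.11 to 1.63 with a median of 1.34. The Y-P libraries did not reach the lowest ratio of either other stage. The ratio is a description, since GAB2 is part of it.

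SOS1 and SOS2 are the exchange factors that activate RAS, and on FPKM they were present at similar levels. SOS1 measured 81.1, 91.8 and 97.4 CPM in the lowest, median and highest Y-A library. In Y-E its levels were 89.8, 104 and 119.7 CPM, and in Y-P 48.9, 68.8 and 89.2 CPM. All Y-P libraries were below all Y-E libraries, the gap being less than 1 CPM, whereas Y-P and Y-A overlapped. SOS1 fell in Y-P against Y-E by 0.60 on the log2 scale (SE 0.14, 1.51-fold lower, edgeR adjusted p = 0.00785).

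The call for SOS1 rests in part on the deep libraries. Y-P replicates 2, 3 and 5 had 48.9, 49.8 and 63.8 CPM, and the other Y-P libraries 73.7 to 89.2. Without the 5 deep libraries, the log2 fold change for Y-P vs Y-E was −0.28 (SE 0.10, edgeR adjusted p = 0.0913), and it was −0.42 with limma on the FPKM values (adjusted p = 0.0639). These deep Y-P libraries also had the highest summed T cell markers (described below) of their stage, 844, 818 and 1073 CPM. The other Y-P libraries had 576 to 661 CPM. Within Y-P, depth and this marker sum thus cannot be told apart. The part of either in the SOS1 result was not tested. Against Y-A the log2 fold change was −0.38 (95% interval −0.67 to −0.093, edgeR adjusted p = 0.105), with lower levels in 6 of 6 same-numbered pairs. It passed the threshold only without Y-P replicate 1 (−0.47, edgeR adjusted p = 0.0430), and it was −0.09 without the deep libraries. Y-E vs Y-A gave 0.22 (−0.073 to 0.51, edgeR adjusted p = 0.929).

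SOS2 showed no difference past the threshold. It measured 87.0, 93.8 and 102 CPM in the lowest, median and highest Y-A library. In Y-E its levels were 86.0, 99.6 and 114 CPM, and in Y-P 52.6, 87.4 and 106 CPM. Y-P was split in the same way as for SOS1, with replicates 2, 3 and 5 between 52.6 and 77.2 CPM and the others between 97.6 and 106 CPM, inside or near the ranges of the other stages. The log2 fold change was −0.28 for Y-P vs Y-E (95% interval −0.59 to 0.037, edgeR adjusted p = 0.235) and −0.19 for Y-P vs Y-A (−0.50 to 0.12, edgeR adjusted p = 0.485). Both turned positive without the deep libraries, to 0.078 and 0.13. Y-E vs Y-A gave 0.088 (−0.23 to 0.40, edgeR adjusted p = 0.999).

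**Figure D2:**
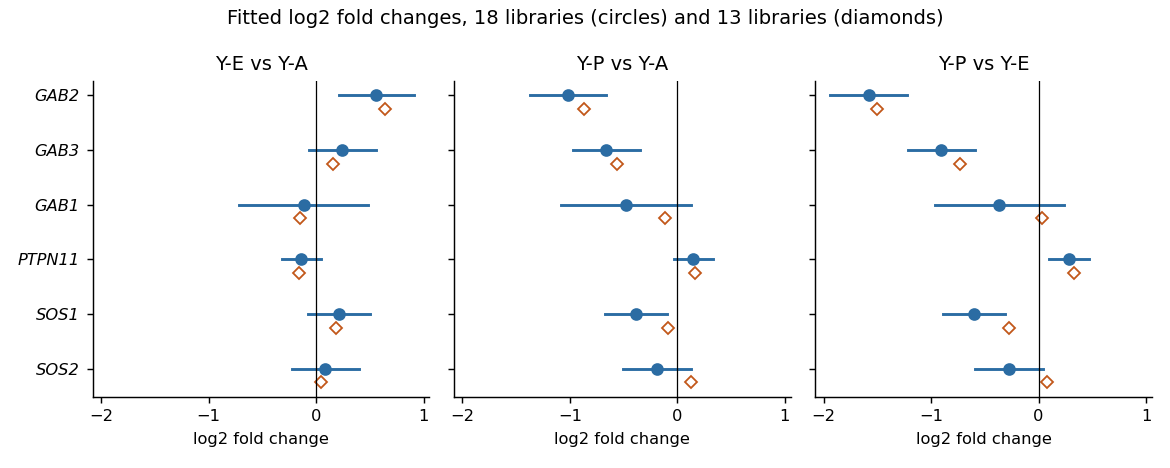
Fitted log2 fold changes (horizontal axes) of the 6 genes (vertical axis) in the 3 comparisons. Blue circles with lines are the edgeR estimates over 18 libraries with their 95% intervals, and orange diamonds the estimates over the 13 libraries that are not deep. In Y-P vs Y-E the diamond of GAB3 stays at −0.73, whereas those of SOS1 and SOS2 move to −0.28 and 0.078.

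The ratio of SOS1 to SOS2 FPKM within a library was steadier than either gene. It ran from 0.887 to 1.02 in Y-A, from 0.918 to 1.14 in Y-E and from 0.754 to 0.930 in Y-P, with means of 0.949 ± 0.0523, 1.04 ± 0.0699 and 0.840 ± 0.0567 (SD, n = 6). Y-P and Y-E overlapped by 1 library on each side, Y-P replicate 2 and Y-E replicate 1. The log2 ratio was lower in Y-P than in Y-E by 0.31 (exact two-sided permutation test, p = 0.00433, 0.00974 adjusted over the 3 comparisons) and lower in Y-P than in Y-A by 0.18 (exact permutation p = 0.00649, adjusted 0.00974). It was higher in Y-E than in Y-A by 0.13 (exact permutation p = 0.0325, adjusted 0.0325).

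Without the deep libraries the log2 ratio was lower in Y-P by 0.36 against Y-E and by 0.22 against Y-A. With 3 against 5 libraries the smallest p the exact test can give was 0.0357, which both differences reached, and the adjusted value was 0.0536. For Y-E vs Y-A the adjusted exact permutation p lay above 0.05 when Y-A replicate 2, 3 or 6 or any 1 of Y-E replicates 2 to 6 was left out, at 0.0519 to 0.0649, with log2 differences of 0.10 to 0.13. Paired by replicate number, the ratio was lower in Y-P in 6 of 6 pairs against either stage (exact two-sided sign-flip test, p = 0.03125, the smallest that 6 pairs allow, adjusted 0.0469). It was higher in Y-E than in Y-A in 5 of 6 pairs, and that difference did not pass in the paired test (exact sign-flip p = 0.0938).

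**Figure D3:**
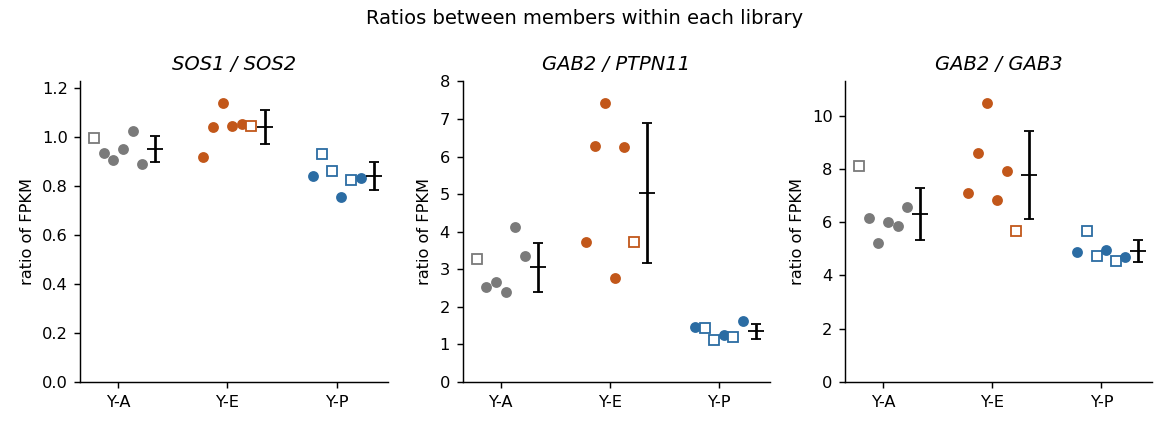
Ratios of FPKM within each library (vertical axes, starting at 0) by stage (horizontal axes), with the mean ± SD of 6 libraries as black bars. Open squares are the deep libraries. The GAB2 to PTPN11 ratio of the Y-P libraries lies between 1.11 and 1.63, below all others, and the SOS1 to SOS2 ratio averages 0.840 in Y-P, 0.949 in Y-A and 1.04 in Y-E.

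Counted over the members, 0 of the 5 tested genes passed an adjusted p of 0.05 in Y-E vs Y-A by edgeR, DESeq2 or limma, and 0 had an unadjusted edgeR p under 0.05. Of all 14508 genes tested, 0.0207% passed in that comparison by edgeR, and 4.37% were higher and 1.83% lower at the unadjusted limit. DESeq2 passed 0.611% of 8999 genes as higher and 0.133% as lower, and limma passed 0 of 14508 as higher and 4 as lower. With shares this small, 0 of 5 says little about the members. In Y-P vs Y-A, 1 of the 5, GAB3, passed as lower, against 5.83% of all genes (3.61% lower, 2.22% higher), and in Y-P vs Y-E 3 of the 5 passed (GAB3 and SOS1 lower, PTPN11 higher), against 14.4% of all genes, 8.68% lower and 5.77% higher. With the study's further limit of a 2-fold change, 0 of the 5 were called in any comparison, while 2.67% of all genes were called in Y-P vs Y-E, 1.43% in Y-P vs Y-A and 0.0138% in Y-E vs Y-A. GAB2 exceeded that fold in both comparisons with Y-P. Libraries that lay wholly below those of the other stage were found for 3.84% of all genes in Y-P vs Y-E and for 2.32% in Y-P vs Y-A. Across the 3 stages at once, SOS1 (edgeR F test, adjusted p = 0.0223) and GAB3 (adjusted p = 0.00294) passed, and PTPN11 (0.0895), SOS2 (0.437) and GAB1 (0.509) did not pass the same edgeR test, which 11% of all genes passed.

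The 5 genes whose log2 CPM followed GAB2 most closely over the 18 libraries, out of 14502 compared, were RARA, ELL, ADAM19, TIAM1 and SSH2. RARA encodes a retinoic acid receptor, ELL an elongation factor of RNA polymerase II, ADAM19 a membrane metalloprotease, TIAM1 an exchange factor for RAC, and SSH2 a phosphatase that acts on cofilin. Pearson's r with GAB2 ran from 0.975 for RARA to 0.964 for SSH2, and from 0.819 to 0.879 on deviations from the stage means. RARA averaged 505 CPM in Y-P, against 811 in Y-A and 1144 in Y-E. Of the 5 genes, 4 were also among the first 5 on log2(FPKM + 1), and 4 without Y-E replicate 6. Among the members, r with GAB2 was 0.923 for GAB3, 0.827 for SOS1, 0.567 for SOS2, 0.522 for GAB1 and −0.782 for PTPN11. All these values share the stages, the libraries and their depth, and they are descriptions.

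The wider route was read from 6 lists of 75 genes, of which 62 were in the table and 61 were tested. In Y-E vs Y-A, 0 of the 61 passed an adjusted p of 0.05 by edgeR and by limma, and 3 passed by DESeq2, all higher in Y-E. Of the 8999 genes to which DESeq2 gave an adjusted p, 0.611% passed as higher and 0.133% as lower. At an unadjusted edgeR p under 0.05, 10 of the 61 were higher in Y-E and 2 lower, against 4.37% and 1.83% of all genes. In Y-P vs Y-A, 5 fell and 1 rose by edgeR, against 3.61% and 2.22% of all genes. With the replicate block 8 fell and 1 rose there, where 801 and 481 of all 14508 genes did so. In Y-P vs Y-E, 16 fell and 2 rose, against the 8.68% and 5.77% of all genes, shares that also stand beside each list below. The median log2 fold change over the lists was −0.28 in Y-P vs Y-E, where that of all genes was 0.04, and −0.21 in Y-P vs Y-A, where that of all genes was 0.03. Without the deep libraries 12 fell and 2 rose in Y-P vs Y-E, 11 of them among the 18, and 2 fell in Y-P vs Y-A, both among the 6. Of all 14930 genes tested in that fit, 1197 fell and 864 rose in Y-P vs Y-E. In Y-P vs Y-A, 293 of them fell and 171 rose.

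Adaptors and phosphatases that stand beside the members made up the first list, with 6 of 14 tested genes lower and 1 higher in Y-P vs Y-E. CBL, a ubiquitin ligase that docks on activated receptors and adaptors, averaged 295 ± 44.6 CPM in Y-E and 140.5 ± 41.9 in Y-P, a log2 fold change of −1.07 (SE 0.17, edgeR adjusted p = 0.0008). FRS2, the docking protein of FGF receptors, fell by 0.71 (edgeR adjusted p = 0.00115), and DOK1, an adaptor that restrains RAS, fell by 0.62 (edgeR adjusted p = 0.00165). The same 3 genes fell against Y-A, by 0.75, 0.66 and 0.44 (edgeR adjusted p = 0.0176, 0.00614 and 0.0269). Without the deep libraries CBL did not pass against Y-A (−0.42, edgeR adjusted p = 0.142), whereas FRS2 (−0.51, edgeR adjusted p = 0.0334) and DOK1 (−0.53, edgeR adjusted p = 0.0347) did. LAT, the membrane adaptor of T cells, rose in Y-P by 0.50 against Y-E (edgeR adjusted p = 0.0222) and by 0.54 against Y-A (0.0303 by the same test). LAT was named after its values were seen, and neither of its changes passed without the deep libraries. PTPN6, which encodes SHP1, the close relative of SHP2, had the highest FPKM of this list. It averaged 788 CPM in Y-P, against 815 in Y-A and 934 in Y-E, and did not pass in any comparison.

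Of the 9 tested receptors that signal through these adaptors, 3 fell in Y-P vs Y-E. CSF3R, the receptor for the granulocyte growth factor G-CSF, averaged 1925 ± 217 CPM in Y-P, against 2720 ± 355 in Y-A and 4104 ± 1057 in Y-E, a log2 fold change of −1.09 in Y-P vs Y-E (SE 0.16, edgeR adjusted p = 0.000426). IGF1R, the receptor for IGF-1, fell by 1.07 (edgeR adjusted p = 0.00194), and CSF2RB, the shared chain of the receptors for GM-CSF, IL-3 and IL-5, fell by 0.72 (edgeR adjusted p = 0.00236). IGF1R also fell against Y-A, by 0.83 (edgeR adjusted p = 0.0210), but not past the threshold without the deep libraries (−0.45, edgeR adjusted p = 0.192). Among the 4 inhibitory and adhesion receptors tested, BTLA of B and T cells rose by 0.60 in Y-P vs Y-E (edgeR adjusted p = 0.0276) and was the only one past the threshold there.

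Downstream, 4 of 12 genes of the RAS and ERK arm fell in Y-P vs Y-E. They included the MEK2 gene MAP2K2 (log2 fold change −0.62, edgeR adjusted p = 0.00537) and the kinase gene BRAF (−0.53, edgeR adjusted p = 0.0141). The median of this arm was 0.0089, however, close to the 0.04 of all genes, so most of its genes lay near 0. BRAF did not pass without the deep libraries (−0.40, edgeR adjusted p = 0.130).

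Among the brakes on RAS and ERK, 1 of 10 fell in Y-P vs Y-E, near the 8.68% of all genes. NF1, which encodes the RAS-inactivating protein neurofibromin, fell by 1.03 in Y-P vs Y-E (SE 0.21, edgeR adjusted p = 0.00410) and by 0.81 against Y-A (edgeR adjusted p = 0.0339). Neither change of NF1 passed without the deep libraries (−0.66 and −0.49, edgeR adjusted p = 0.102 and 0.291). RASA3, a GTPase-activating protein and the most abundant gene of this list on FPKM, averaged 708, 705 and 771 CPM in Y-A, Y-E and Y-P. In the PI3-kinase and PLC-gamma arm 2 of 12 fell, the leukocyte catalytic subunits PIK3CD (−0.85, edgeR adjusted p = 0.00194) and PIK3CG (−0.73, edgeR adjusted p = 0.00199). PIK3CD averaged 619 CPM in Y-P, against 848 in Y-A and 1113 in Y-E.

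**Figure D4:**
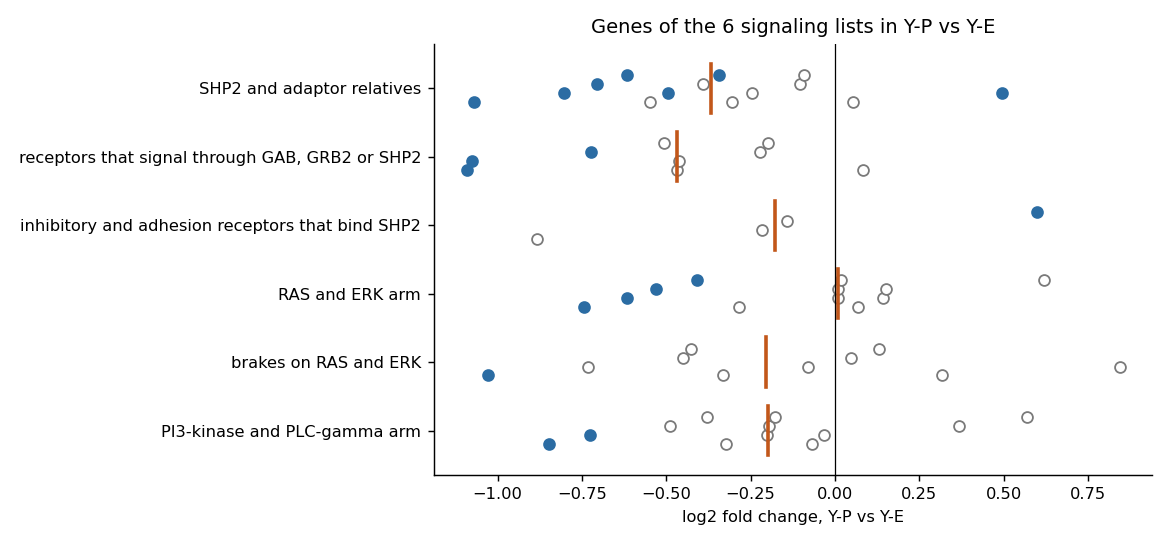
Log2 fold change in Y-P vs Y-E (horizontal axis) of the 61 tested genes of the 6 lists (rows, points spread vertically for legibility). Blue points passed an edgeR adjusted p of 0.05, open points did not, and the orange bar is the median of the list. The medians run from −0.47 for the receptors to 0.0089 for the RAS and ERK arm.

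Some markers of blood cell types also differed between the stages. Of 10 neutrophil markers 6 were in the table, and their summed level had a median of 1408 CPM in Y-P (836 to 4033), 2657 in Y-A (1457 to 6181) and 5517 in Y-E (1446 to 7194). Of the 6, 5 fell in Y-P vs Y-E, and none of the 6 was at 0 in any library. The order of the stage medians is that of GAB2. Within Y-A, replicates 1 to 5 had sums of 4145, 2726, 2588, 2091 and 6181 CPM. Their GAB2 levels were 261, 210, 215, 206 and 284 CPM, largely in the same order. Other libraries departed from such an order. Y-P replicate 3 had the highest marker sum of its stage, 4033 CPM, and the lowest GAB2 level, 94.6 CPM. Y-A replicate 6 and Y-E replicate 6 had sums of 1457 and 1446 CPM, close to the Y-P median, with 268 and 291 CPM of GAB2. These 2 libraries also held the most hemoglobin counts of their stages, 16.7% and 8.36%, and their reticulocyte markers summed to 10502 and 4472 CPM. Of 8 T cell markers 4 were in the table, with sums of 494 to 593 CPM in Y-A, 501 to 605 in Y-E and 576 to 1073 in Y-P, and 2 of the 4 rose in both comparisons with Y-P, as LAT did. The part of cell composition in the results was not tested.

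**Figure D5:**
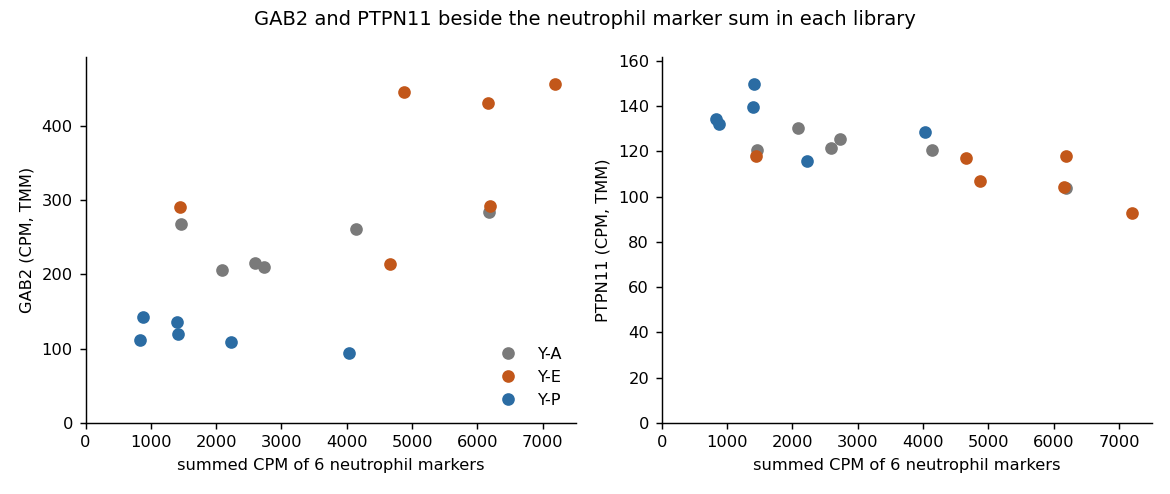
GAB2 (left) and PTPN11 (right) in CPM (vertical axes) against the summed CPM of 6 neutrophil markers (horizontal axes), 1 point for each of the 18 libraries, colored by stage. Y-P replicates 1 and 5, with 1399 and 1416 CPM of markers, had 136 and 119.9 CPM of GAB2. Y-A replicates 4 and 5, with 2091 and 6181 CPM of markers, had 206 and 284 CPM. Y-A replicate 6 and Y-E replicate 6, with 1457 and 1446 CPM of markers and with 16.7% and 8.36% hemoglobin, had 268 and 291 CPM. S100A12 and S100A9 had the highest levels of the 6 markers, with means of 2142 and 785 CPM in Y-A. The part of cell composition was not tested.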

How the data were processed

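RNA from whole blood, preserved in TRIzol LS, was sequenced as poly(A)-selected, dUTP-marked paired-end libraries. The submitters' processing notes name cutadapt 1.9, HISAT2 2.2.1, StringTie 2.1.6, DESeq2 and edgeR. The authors deposited for each gene and library an FPKM value and a whole-number read count that was not normalized; how the counts were made, and whether strand was used, is not given in the sources used here. For 3981 genes with 1 transcript and at least 100 counts in every library, the ratio of count to FPKM followed the library's median within 5% in 100% of values, so both columns hold the same measurement. No 2 count columns were identical, and 0 columns were left unmapped.

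Counts of the 18 libraries were fitted by edgeR 4.0.16 under R 4.3.3 (quasi-likelihood model of stage alone, TMM factors, filterByExpr), tested two-sided, and adjusted by the Benjamini-Hochberg method over 14508 genes. On simulated counts, 33 of 50 genes changed 2-fold and 10 of 50 changed 1.5-fold were recovered for Y-P vs Y-E (14151 genes). Most 1.5-fold changes were thus missed there, and smaller ones were not simulated. The changed genes were drawn at random over all levels, so these rates do not give the power for PTPN11, SOS2 or another member. Alternatives used DESeq2 1.42.0 and limma 3.58.1 on log2(FPKM + 1) and log2(FPKM + 0.1), on which scale changes of low genes are understated. The FPKM values entered limma without TMM factors.

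The members, the lists and the tests were chosen with earlier results of these data known. Named genes were every member; from each list the up to 3 genes with the smallest adjusted p among those past 0.05 in a comparison, and otherwise its most abundant gene on FPKM; every list gene past both limits; and the 5 genes closest to GAB2. Some genes that this rule names are not reported here. The replicate numbers were taken to mark the cows, as the study tracked the same animals, although the GEO labels do not state it. Correlations of deviations from the stage means between same-numbered libraries ran between 0.110 and 0.515 (Y-E with Y-A), −0.0492 and 0.369 (Y-P with Y-A), and −0.0544 and 0.400 (Y-P with Y-E). The main fit treats the libraries as independent. Exclusion of libraries over 40000000 counts and the paired sign-flip test of the SOS1 to SOS2 ratio were chosen after seeing the data. No sequence is printed, since none was used here.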

Additional observations from a re-analysis of the deposited data

Results flagged for a closer look

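Among 39 combinations of a quantity and a stage, 5 held a library that stood apart from the other 5 by Dixon's criterion, and chance alone flags about 1 group in 20. GAB1 measured 13.1 CPM in Y-P replicate 1, the other Y-P libraries being between 5.09 and 7.07 CPM. The same library had a GAB3 to GAB1 ratio of 2.73 and a GAB1 share of 5.86% among the 3 GAB genes, which both contain that GAB1 level. The GAB1 share was 2.79% in Y-E replicate 6, above the other Y-E libraries. The ratio of GAB2 to GAB3 was 5.68 in Y-P replicate 2, above the other Y-P libraries.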

How the results depend on the processing

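Scaling by library size only moved the median log2 fold change of all genes from 0.04 to 0.18 in Y-P vs Y-E. In Y-P vs Y-A it moved from 0.03 to 0.19, and the member changes shift with it. With limma, which used no TMM factors, this median was 0.14 and 0.21 in Y-P vs Y-E (pseudocounts 1 and 0.1). In Y-P vs Y-A it was 0.15 and 0.22, and the member changes by limma carry that shift too. Over all alternatives, sign changes among the members were seen for GAB1 in Y-E vs Y-A without Y-A replicate 6 (0.096) or Y-E replicate 4 (0.013; −0.23 to 0.096 over the fits without 1 library), and without the deep libraries (over 40000000 counts) for GAB1 in Y-P vs Y-E (0.034) and for SOS2 in Y-P vs Y-E (0.078) and Y-P vs Y-A (0.13). The causes of these and of the following shifts were not tested.

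Of the 5 tested members, 1 (GAB3) was lower in Y-P vs Y-A at an adjusted p under 0.05, but 0 with limma under both pseudocounts and without the deep libraries, and 1 to 2 when 1 library was left out. In Y-P vs Y-E 2 were lower, but 1 with limma under both pseudocounts and 1 without the deep libraries. The log2 fold change of GAB2 in Y-P vs Y-A, which was not tested, was smaller than 2-fold with library size only, with limma, without the deep libraries, and without Y-A replicate 5 or Y-P replicate 2, 3 or 4. The 1 member higher in Y-P vs Y-E became 0 with no filter on low counts, with only the 2 stages compared, with the replicate block over 17 libraries and in 7 of the fits without 1 library (0 to 1). The replicate block over 18 libraries changed no call of a member.

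Of the list genes, 0 were higher in Y-E vs Y-A, 3 with DESeq2 and 2 without the deep libraries. In those last 2 fits, 55 of all 8999 and 81 of all 14930 genes were higher. In Y-P vs Y-A 1 list gene was higher, but 2 with library size only, and 5 and 4 with limma (pseudocounts 1 and 0.1). It was 0 with only the 2 stages compared or without the deep libraries (0 to 1 when 1 library was left out). There 5 were lower, but 3 with library size only and with limma, 8 with DESeq2 and with the replicate block, and 2 without the deep libraries (3 to 7 when 1 library was left out). In Y-P vs Y-E 2 were higher, but 4 with library size only and with DESeq2, and 6 with limma (1 to 4 when 1 library was left out). There 16 were lower, with 22 by DESeq2, 20 with the replicate block, and 11 with limma and with library size only. The count was 12 without the deep libraries and 12 to 19 when 1 library was left out. Calls among all 14508 genes moved as well. In Y-P vs Y-E, 837 were higher in the main fit, 1795 with library size only and 2401 and 2268 with limma. In the same order 1259, 758, 669 and 663 were lower. In Y-P vs Y-A, 322, 1075, 1890 and 1698 were higher, and 524, 258, 226 and 230 lower. DESeq2 called 1231 higher and 1632 lower of 13369 genes in Y-P vs Y-E, and 712 and 859 of 13769 in Y-P vs Y-A. The replicate block called 1047 higher and 1561 lower in Y-P vs Y-E.

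The log2 ratio of SOS1 to SOS2 in Y-E vs Y-A was 0.13 without Y-E replicate 6 and 0.14 without the deep libraries, and 0.10 to 0.16 when 1 library was left out. With the replicate block, tested by exact sign flips of the pairs and chosen after seeing the data, it was 0.13 (p = 0.0938). Without the deep libraries it was −0.22 in Y-P vs Y-A and −0.36 in Y-P vs Y-E, each with an adjusted exact permutation p of 0.0536.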

Other observations

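The other marker lists give the blood cell background of these libraries. The summed level of 4 reticulocyte markers of 7 ran from 439 to 10502 CPM in Y-A, from 92.1 to 4472 in Y-E and from 39.0 to 122 in Y-P, with 4 of 4 lower in Y-P vs Y-A, and HBM and SLC4A1 were at 0 in some libraries. Platelet markers (3 of 6) summed to 261 to 350 CPM in Y-A, 228 to 369 in Y-E and 140 to 196 in Y-P, with 2 of 3 lower in both comparisons with Y-P, and GP1BA was at 0 in some libraries. Monocyte markers (5 of 6) summed to 310 to 541, 304 to 582 and 234 to 448 CPM in Y-A, Y-E and Y-P, with 1 of 5 lower in Y-P vs Y-E. B cell markers (6 of 6) ran from 491 to 1634, 408 to 1350 and 569 to 1816 CPM, and eosinophil and basophil markers (5 of 7) from 143 to 384, 190 to 378 and 135 to 304 CPM, with HDC and CPA3 at 0 in some libraries. Of these last 2 lists, 0 markers passed an adjusted p of 0.05 by edgeR in any comparison.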
